A study of Mus musculus with 18 samples.

Results

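Genes for 6 cytokines, 1 cytokine receptor and 3 prostaglandin enzymes were followed by RNA sequencing in NIH3T3 cells, an established line of mouse embryo fibroblasts. The set was chosen by name, with earlier results of these data known. Il6, Lif, Il11, Il15, Il33 and Csf1 encode cytokines. Il1rl1 encodes ST2, the receptor chain for interleukin-33, and Ptgs1, Ptgs2 and Ptges encode enzymes that make prostaglandin E2. All 10 were found by symbol in the deposited table of 21937 genes. The cells had received 100 nM dexamethasone, a synthetic glucocorticoid used to set the phase of circadian clocks in culture, for 2 h, and the return to normal medium was 0 h. Libraries were made at 0, 4, 8, 12, 16, 20, 24, 28 and 32 h after that change, 2 at each time (replicate 1 and replicate 2), 18 in all. Every library, those of 0 h included, therefore comes from cells that had been given the glucocorticoid, and no untreated library serves as a baseline. Later libraries also follow time in the normal medium, so each comparison with 0 h spans the medium change. Nothing in the labels states that the 2 libraries of a time came from cultures grown separately, so the p-values measure only the spread between these libraries.

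Interleukin-6, LIF and interleukin-11 belong to one family of cytokines that signal through the shared receptor chain gp130, JAK kinases and STAT3. Cyclooxygenases turn arachidonic acid into prostaglandin H2: Ptgs1 encodes COX-1, the form most cells make at a steady level, and Ptgs2 encodes COX-2, an immediate early gene of growth factors and inflammation. Ptges encodes the microsomal synthase that turns prostaglandin H2 into prostaglandin E2. Glucocorticoids are widely used because they hold down inflammatory genes such as Ptgs2 and Il6, and fibroblasts are a known source of these gp130 cytokines.

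The promoters of Ptgs2, Lif, Il11 and Il6 are shown. Ptgs2, Lif and Il11 had the largest falls among the 9 genes tested, which leave out Il33. Il6 had its lowest mean in the middle of the course, at 12 h, as Ptges (not shown) did at 16 h. Each runs 5′ to 3′ from 250 bases before to 30 bases after the start annotated by RefSeq (GRCm38.p6, a later build than the mm9 of the deposited table), and 9 of the 10 genes had an entry. Capitals mark matches on either strand to an E-box (CACGTG), a CRE core (TGACGT), AP-1 (TGANTCA), C/EBP (TTNNGNAA) or NF-kB motif.
Ptgs2, chr1:150099781-150100060, plus strand: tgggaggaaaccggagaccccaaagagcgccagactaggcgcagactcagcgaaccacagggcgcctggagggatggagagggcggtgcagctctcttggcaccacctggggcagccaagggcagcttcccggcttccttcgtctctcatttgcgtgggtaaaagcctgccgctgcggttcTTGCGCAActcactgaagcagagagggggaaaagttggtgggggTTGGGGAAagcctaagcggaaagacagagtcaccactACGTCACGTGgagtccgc
Lif, chr11:4257318-4257597, plus strand: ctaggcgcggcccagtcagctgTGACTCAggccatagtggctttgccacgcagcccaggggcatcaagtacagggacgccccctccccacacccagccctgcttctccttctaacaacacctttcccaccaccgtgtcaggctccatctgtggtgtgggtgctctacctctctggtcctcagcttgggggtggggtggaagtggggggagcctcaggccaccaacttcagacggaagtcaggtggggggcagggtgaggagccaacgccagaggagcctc
Il11, chr7:4778112-4778391, minus strand: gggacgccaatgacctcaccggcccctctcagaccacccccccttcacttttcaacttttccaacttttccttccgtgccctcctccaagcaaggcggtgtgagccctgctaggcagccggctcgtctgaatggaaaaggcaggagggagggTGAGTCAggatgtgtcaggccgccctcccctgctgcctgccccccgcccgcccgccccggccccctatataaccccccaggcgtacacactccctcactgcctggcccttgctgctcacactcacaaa
Il6, chr5:30012864-30013143, plus strand: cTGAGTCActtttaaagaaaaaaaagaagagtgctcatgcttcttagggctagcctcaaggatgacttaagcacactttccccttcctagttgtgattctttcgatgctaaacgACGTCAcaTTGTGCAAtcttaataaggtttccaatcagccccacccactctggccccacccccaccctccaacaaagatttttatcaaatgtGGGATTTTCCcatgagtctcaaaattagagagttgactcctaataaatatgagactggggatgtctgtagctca
The Ptgs2 window held C/EBP matches at bases -69 to -62 and -25 to -18, a CRE core match at bases 13 to 18 after the annotated start and an E-box at bases 17 to 22, the last pair sharing 2 bases. An E-box is the motif bound by CLOCK and BMAL1 as well as by other factors, and 6.79% of the 32851 promoter windows in the table held one, against 7.26% for the CRE core, 7.46% for AP-1, 39.3% for C/EBP and 4.53% for NF-kB. Lif and Il11 each had an AP-1 match, at -228 to -222 and -98 to -92. Il6 had matches to AP-1 at -249 to -243, to the CRE core at -136 to -131, to C/EBP at -128 to -121 and to NF-kB at -44 to -35. TATAAA, the core of a glucocorticoid receptor site (AGAACA), a STAT motif (TTCNNNGAA) and a CArG box had no match in the 4 windows shown. Of all windows 13.1%, 17.8%, 7.83% and 1.56% held one. Among windows of the set not shown, AGAACA matched in Ptges (-191 to -186), Ptgs1 (-204 to -199) and Csf1 (-124 to -119), and TATAAA in those of Il33. A second annotated start of Il11 had no match to any motif searched, and the table does not tell which start was used. A match describes letters only and is not evidence of binding.

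Depth was 31.9 to 38.9 M counted reads for replicate 1 and 25.4 to 32.0 M for replicate 2. Values are the authors' normalized reads per gene, that is, read counts divided by 1 factor per library, and their sums were 33.9 to 35.1 M at 0 h and 4 h and 29.97 to 31.8 M from 8 h on. All 8 fibroblast markers looked up were present, with summed levels of 609469 to 818334 normalized reads. All 5 mast cell markers, Kit and Cpa3 among them, were at 0 in all 18 libraries, Cd3e was also at 0, and Ptprc, the defining leukocyte marker, did not pass 4.87 normalized reads. The leukocyte list summed to 279 to 422 normalized reads, nearly all of it Cd68 and Cd14. Of 5 endothelial and 5 epithelial markers 2 and 2 averaged 10 or more, with summed levels of 42.5 to 105 and of 116 to 1123 normalized reads. The epithelial sum was mostly Krt8, a keratin, which had 156 and 141 normalized reads at 32 h, against 1079 and 791 at 0 h, while Epcam, Cdh1 and Krt5 did not pass 6.44. The part of such cells in the changes of the 10 genes was not tested.

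Tests were run on 9 of the 10 genes, since the mean of Il33, 6.18 normalized reads, was under the minimum of 10. Divided by the length of the longest coding transcript (GENCODE M21), the mean level over the 18 libraries was highest for Il1rl1, at 9583 normalized reads per kilobase. Ptgs2 (5637), Csf1 (5132) and Ptgs1 (3138) followed, then Ptges (865), Il11 (434), Lif (248), Il15 (58.5), Il6 (39.5) and Il33 (2.43, all normalized reads per kilobase). The transcripts in use were not known, and those of Il1rl1 alone range from 375 to 5302 bases, so the order is approximate.

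**Figure D1:**
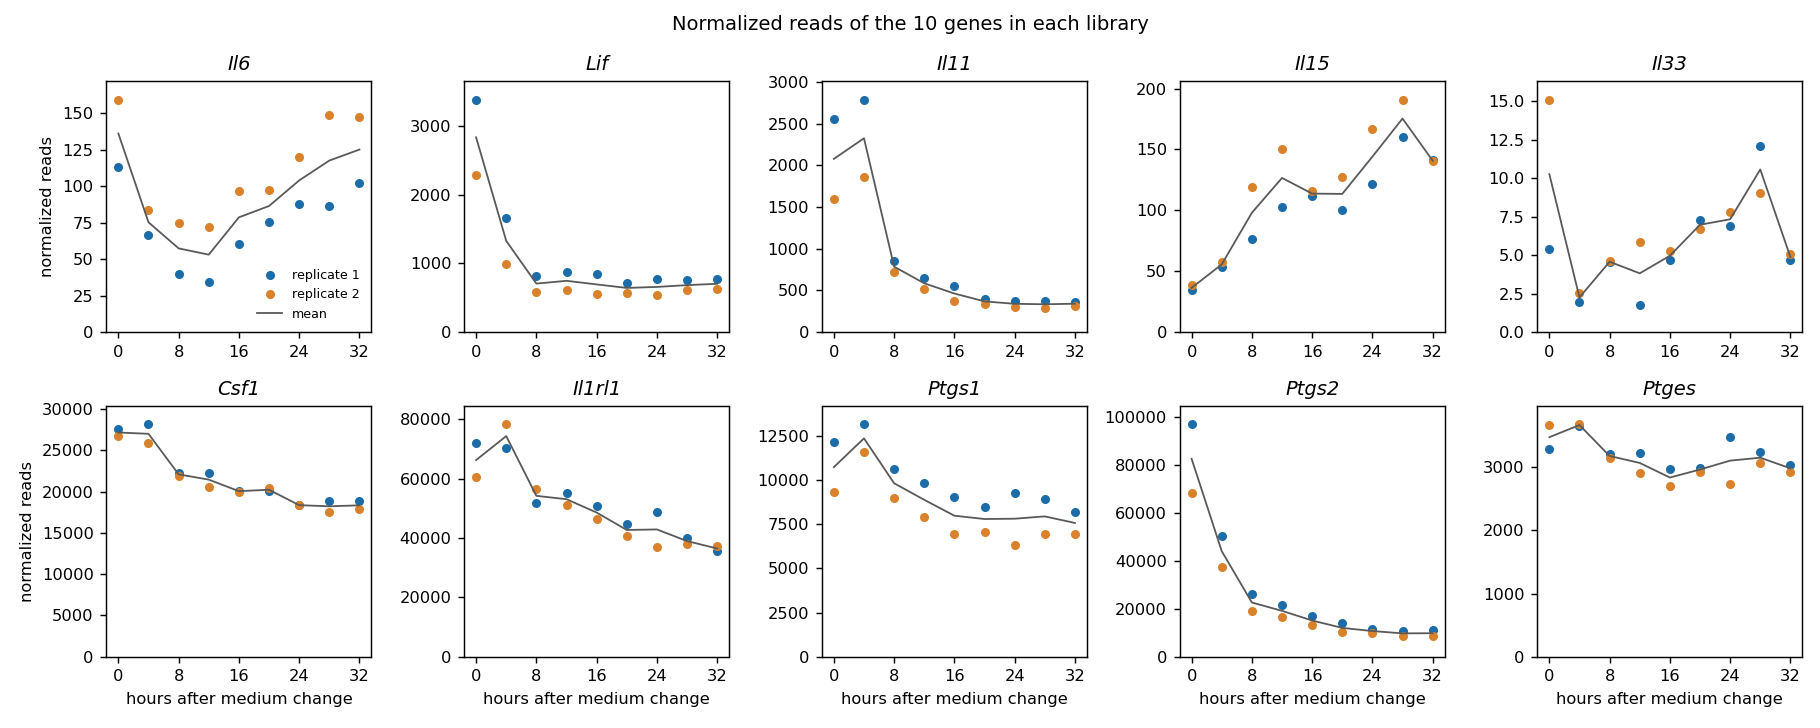
Normalized reads (vertical axes, starting at 0) of the 10 genes against hours after the medium change, with 1 point per library (blue for replicate 1, orange for replicate 2) and a line through the mean of each time. Ptgs2, Lif and Il11 fall steeply within the first 8 h, Il15 climbs, Il6 dips to its lowest mean, 53.1, at 12 h, and Il33 stays at or below 15.1.

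Over the whole course most of the set changed, mainly downward, and Il15 was the gene that was higher than at 0 h. By limma's moderated F test over the 9 times, at a Benjamini-Hochberg adjusted p under 0.05 over all 12393 tested genes, 8 of the 9 tested genes changed, against 52.0% of all tested genes. Ptges did not pass (adjusted p = 0.0607). Earlier results of these data were known when the set was chosen, so the count of 8 is a description. The count was 6 to 9 over 28 alternatives, and Lif, Il11, Il15, Csf1, Il1rl1 and Ptgs2 passed in all of them, whereas Il6 and Ptgs1 passed in some. At 32 h against 0 h, 5 genes were lower (Ptgs2, Il11, Lif, Il1rl1 and Csf1), 1 was higher (Il15) and 3 did not pass. Of all tested genes 20.4% were lower and 20.5% higher, 40.8% in all. A replicate block in the model takes out the difference between replicate 1 and replicate 2. With it Ptgs1 and Ptges were lower too (adjusted p = 1.27e-06 and 0.0185) and Il6 did not pass, where 53.6% of all tested genes passed. The median log2 change of the 9 genes was -0.57, against 0.01 for all tested genes. Because the 8 comparisons with 0 h share the same 2 libraries, they are not independent of each other. Changes on the log2(value + 1) scale are given ± SE and every adjusted p is from limma unless another tool is named. In these cultures fewer cells that express a gene and less of its RNA per cell cannot be told apart.

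The genes called at 4 h depended on the model and on single libraries. At 4 h against 0 h, Lif and Ptgs2 were lower, 7 of the 9 genes did not pass and none was higher, against 10.5% of all tested genes lower and 11.0% higher, 21.5% in all. At 8 h against 0 h, Il6, Lif, Il11, Csf1 and Ptgs2 were lower and Il15 was higher, with 3 not passing, against 17.1% lower and 17.3% higher. Those 6 genes compare with 34.4% of all tested genes. At 12 h Il6, Lif, Il11, Csf1, Il1rl1 and Ptgs2 were lower and Il15 higher, and at 16 h the same with Ptges in place of Il6, 7 of 9 each time, where 36.2% and 36.5% of all tested genes differed from 0 h (18.1% and 18.7% higher, 18.2% and 17.8% lower). At 20, 24 and 28 h, Lif, Il11, Csf1, Il1rl1 and Ptgs2 were lower and Il15 higher, 6 of 9 each time. Of all tested genes 38.6%, 37.2% and 39.8% differed at these times (19.6%, 18.6% and 19.8% higher, 19.0%, 18.6% and 20.0% lower). At 4 h none of the 9 genes passed without 0 h replicate 1 (log2 -0.83 for Lif and -0.65 for Ptgs2) or without 4 h replicate 2 (log2 -0.74 and -0.69), where 20.2% and 15.7% of all tested genes did, and 2 to 3 passed in every other case with a library left out. With a replicate block, which takes out the difference between replicate 1 and replicate 2, 3 genes were lower at 4 h (Il6, Lif and Ptgs2) and 2 were higher (Il15 and Ptgs1), where 37.6% of all tested genes passed.

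**Figure D2:**
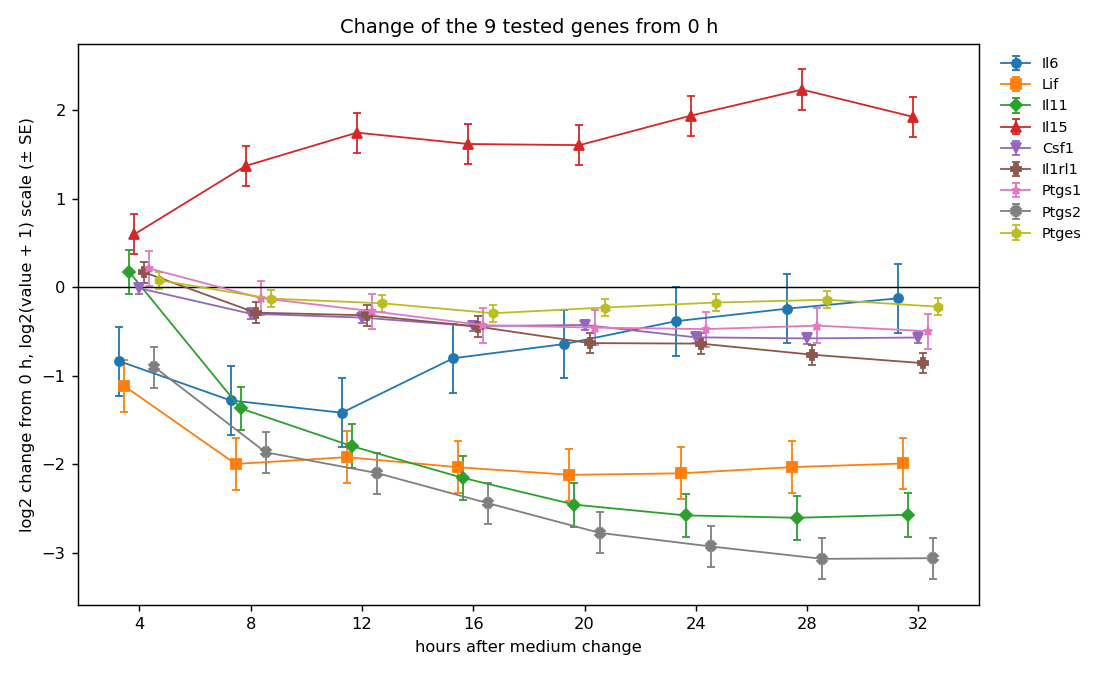
Log2 change from 0 h (vertical axis, log2(value + 1) scale, ± SE from limma, 2 libraries a time) of the 9 tested genes against hours after the medium change, points shifted sideways for legibility. Ptgs2 goes down to -3.07 at 28 h and Il15 up to 2.23, while Il6 returns towards 0 after 12 h.

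Ptgs2 had the largest fall of the set. In replicate 1 it stood at 96949, 50539.9, 26197, 21653, 17159, 13885, 11721, 10869 and 11053 normalized reads over the 9 times, given here and for the other genes in order from 0 h to 32 h. In replicate 2 it stood at 68195, 37553, 19066, 16663, 13100.1, 10188, 9749, 8660.2 and 8606 normalized reads over the 9 times. Both series fell at every step up to 28 h, and the libraries of 0 h, 4 h and 8 h did not overlap with each other, whereas those of neighbouring later times did. Ptgs2 was 1.87-fold lower at 4 h than at 0 h (log2 -0.90 ± 0.23, adjusted p = 0.0141), 3.64-fold lower at 8 h (log2 -1.86 ± 0.23, adjusted p = 4.07e-05) and 8.34-fold lower at 32 h (log2 -3.06 ± 0.23, adjusted p = 2.10e-07). The fall went on between days at matched hours: Ptgs2 was 2.29-fold lower at 32 h than at 8 h (adjusted p = 0.00206).

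The constitutive cyclooxygenase and the synthase kept most of their level. Ptgs1 ran in replicate 1 through 12152, 13167, 10648, 9869, 9048, 8510.1, 9291, 8924 and 8215 normalized reads from 0 h to 32 h, and in replicate 2 through 9328, 11571, 9006, 7909.6, 6931, 7093, 6348, 6978 and 6942. Both series were highest at 4 h, but replicate 2 was lower than replicate 1 at all 9 times. With the times ordered by their means, the libraries of every neighbouring pair overlapped. In order of time, the libraries of 8 h lay below those of 4 h, while those of other consecutive times overlapped. Ptgs1 passed the F test narrowly (adjusted p = 0.0492) and was 1.56-fold lower at 28 h than at 4 h (log2 -0.65 ± 0.20, adjusted p = 0.0171). At 32 h against 0 h its change was log2 -0.50 ± 0.20 (adjusted p = 0.0578, and 1.27e-06 with a replicate block, in which the SE was 0.062). With that block Ptgs1 was higher at 4 h than at 0 h (log2 0.21, adjusted p = 0.0108) and lower at each time from 12 h on (adjusted p from 1.27e-06 to 0.00129). The call at 28 h against 4 h was lost without 4 h replicate 1 or 28 h replicate 2 (log2 -0.55 and -0.47) and with equal totals, in which every library is scaled to the same sum, or quantile normalization (log2 -0.47 and -0.46), and the F test fell short in 16 of 28 alternatives. Ptges stayed between 2702 and 3675 normalized reads, with means of 3663 ± 17.2 at 4 h, its highest, and 2833 ± 185 at 16 h, its lowest (SD, n = 2). It was 1.22-fold lower at 16 h than at 0 h (log2 -0.29 ± 0.09, adjusted p = 0.0251, and 0.408 with equal totals) and passed at no other time against 0 h. That call was also lost after quantile normalization and without 0 h replicate 2 or 16 h replicate 2 (log2 -0.19, -0.21 and -0.23). With a replicate block Ptges passed the F test (adjusted p = 0.00389) and was lower at 20 h and 32 h than at 0 h (adjusted p = 0.0152 and 0.0185).

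Lif, whose product was named for its inhibition of leukaemia cells, fell early, and its means from 8 h to 32 h lay between 643 and 747 normalized reads. It had 3381, 1667, 823, 879, 839, 712, 775, 761 and 779 normalized reads over the 9 times in replicate 1. In replicate 2 it had 2285, 987, 589.7, 614, 549, 575, 540.5, 607 and 627 normalized reads over the 9 times. The libraries of 0 h, of 4 h and of the later times formed 3 levels that did not overlap, and within the last level all neighbouring times overlapped. Lif was 2.17-fold lower at 4 h than at 0 h (log2 -1.11 ± 0.29, adjusted p = 0.0157) and 3.99-fold lower at 8 h (log2 -1.995 ± 0.29, adjusted p = 0.000172). Its change at 32 h against 0 h was of like size, log2 -1.99 ± 0.29 (adjusted p = 9.61e-05), and the difference of 32 h from 8 h was log2 0.01 ± 0.29 (adjusted p = 0.991).

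Il11, a cytokine of fibroblasts and stroma, was still high at 4 h and fell after that. Replicate 1 gave 2557, 2786, 850.0, 650.4, 558, 395, 376, 375 and 367 normalized reads over the 9 times. Replicate 2 gave 1595, 1859.9, 719.6, 521, 368, 342, 304, 293 and 315 normalized reads over the 9 times. In both series 4 h was above 0 h, but the libraries of the 2 times overlapped and the change did not pass (log2 0.17 ± 0.25, adjusted p = 0.656). Every library of 8 h lay below every library of 4 h. In a comparison chosen after these values were seen, Il11 was 2.91-fold lower at 8 h than at 4 h (log2 -1.54 ± 0.25, adjusted p = 0.00130). In that comparison Ptgs2, Csf1 and Il1rl1 were lower too, Il15 was higher and the other 4 genes did not pass, against 6.41% of all tested genes lower and 4.84% higher, 11.3% in all. The count of 5 genes was 8 with a replicate block, where 24.6% of all tested genes passed. The calls of Ptgs2 and Csf1 were lost without 4 h replicate 1 (log2 -0.75 and -0.23) or 8 h replicate 2 (log2 -0.73 and -0.28). That of Il1rl1 was lost without 4 h replicate 2, 8 h replicate 1 or 8 h replicate 2 (log2 -0.38, -0.39 and -0.52). The call of Il15 was lost in 12 of 28 alternatives, and that of Il11 in none. Il11 was 5.93-fold lower at 32 h than at 0 h (log2 -2.57 ± 0.25, adjusted p = 2.10e-06) and 6.85-fold lower at 28 h than at 4 h (adjusted p = 1.28e-06).

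Il6, the founding member of the gp130 cytokines, had low levels with a trough in the middle of the course. Replicate 1 gave 113, 66.9, 40.0, 34.0, 60.5, 75.4, 87.7, 86.4 and 102 normalized reads over the 9 times. Replicate 2 gave 159, 83.7, 74.7, 72.1, 96.8, 97.4, 120.1, 149 and 148 normalized reads over the 9 times. Both series had their lowest value at 12 h and their highest at 0 h, and replicate 2 was above replicate 1 at all 9 times. With the times ordered by their means, the libraries of every neighbouring pair overlapped. In order of time, the libraries of 4 h lay below those of 0 h, while those of later consecutive times overlapped. Il6 passed the F test narrowly (adjusted p = 0.0496) and fell short in 19 of 28 alternatives, by edgeR too (0.0545), with a range from 1.87e-06 to 0.107. It was 2.67-fold lower at 12 h than at 0 h (log2 -1.42 ± 0.39, adjusted p = 0.0113) and 2.23-fold higher at 32 h than at 8 h (log2 1.15 ± 0.39, adjusted p = 0.0399). The fall at 8 h against 0 h (log2 -1.28 ± 0.39, adjusted p = 0.0211) was lost without 0 h replicate 2 or 8 h replicate 1 (log2 -1.03 and -0.84). The call at 12 h was lost when 0 h replicate 2 or 12 h replicate 1 was left out (log2 -1.17 and -0.89), and that at 32 h against 8 h without 8 h replicate 1, 32 h replicate 1 or 32 h replicate 2 (log2 0.71, 1.42 and 0.89). The last was also lost with no filter on low values, after quantile normalization and without a trend in limma's variance (adjusted p = 0.0641, 0.0607 and 0.0662). With a replicate block Il6 was also lower at 4, 16 and 20 h than at 0 h (adjusted p = 0.000853, 0.000700 and 0.00428) and higher at 28 h than at 4 h (0.00698). At 32 h against 0 h its change was log2 -0.12 ± 0.39 (adjusted p = 0.825).

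Il15, a cytokine that keeps natural killer and memory T cells alive, climbed to its highest mean at 28 h. Replicate 1 gave 34.3, 53.3, 76.4, 103, 112, 100.0, 121, 159.8 and 141 normalized reads over the 9 times. Replicate 2 gave 38.4, 57.9, 119.5, 150.1, 116, 127, 167, 191 and 141 normalized reads over the 9 times. The libraries of 0 h lay below those of 4 h, and those of 4 h below those of 8 h. From 8 h to 28 h the libraries of consecutive times overlapped, and those of 32 h lay below those of 28 h. Il15 was 2.59-fold higher at 8 h than at 0 h (log2 1.37 ± 0.23, adjusted p = 0.000434), 4.71-fold higher at 28 h (log2 2.23 ± 0.23, adjusted p = 3.36e-06) and 3.80-fold higher at 32 h (log2 1.93 ± 0.23, adjusted p = 1.37e-05). At 4 h against 0 h its change was log2 0.60 ± 0.23 (adjusted p = 0.0745, and 0.00595 with a replicate block).

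Csf1 and Il1rl1 had smaller falls. Csf1, which encodes the growth factor of macrophages, had 27615 and 26698 normalized reads at 0 h, 28153 and 25845 at 4 h and 22268 and 21913 at 8 h in replicates 1 and 2. Its mean was 18340 ± 669 at 32 h, against 27156 ± 649 at 0 h (SD, n = 2). Every library of 8 h lay below every library of 4 h. Its change was log2 -0.01 ± 0.06 at 4 h (adjusted p = 0.928) and log2 -0.57 ± 0.06 at 32 h, a 1.48-fold fall (adjusted p = 4.87e-06). Equal totals lowered the fall at 8 h against 0 h to log2 -0.16, which no longer passed, against -0.30 ± 0.06 as deposited (adjusted p = 0.00175). Quantile normalization ended the calls at 8 h and 12 h (log2 -0.09 each, adjusted p = 0.292 and 0.281).

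Il1rl1, known as a gene that serum and oncogenes induce in fibroblasts of this kind, is known to make a soluble and a membrane form of ST2, which a count per gene cannot separate. Its replicate 1 values from 0 h to 32 h were 71876, 70321, 51899, 55076, 50854, 44621, 48679, 40005 and 35676 normalized reads. Its replicate 2 values were 60568, 78275, 56463, 51023, 46262, 40764, 37068, 37919.9 and 37209. The libraries of 0 h and 4 h overlapped, and all later libraries lay below both. Il1rl1 was 1.81-fold lower at 32 h than at 0 h (log2 -0.86 ± 0.12, adjusted p = 4.32e-05) and 1.90-fold lower at 28 h than at 4 h (adjusted p = 2.30e-05). Its call at 12 h against 0 h (log2 -0.32 ± 0.12, adjusted p = 0.0449) was lost in 15 of 28 alternatives, and at 8 h its change was log2 -0.29 ± 0.12 (adjusted p = 0.0693, and 0.0119 with a replicate block). The call at 16 h was lost with equal totals, after quantile normalization and without 0 h replicate 1 or 16 h replicate 2 (log2 -0.25, -0.13, -0.32 and -0.38), and those at 20 h and 24 h after quantile normalization (log2 -0.29 and -0.27). The ligand of this receptor, Il33, had 1.79 to 15.1 normalized reads (2 to 14 reads), with 5.42 and 15.1 at 0 h, 1.94 and 2.57 at 4 h and 12.1 and 9.04 at 28 h in replicates 1 and 2. In a fit without the filter on low values Il33 did not pass the F test (adjusted p = 0.0697). In that fit it was lower at 4 h than at 0 h (log2 -1.65 ± 0.46, adjusted p = 0.0295) and higher at 28 h than at 4 h (adjusted p = 0.00815).

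The same hours of the second and the first day were also compared. At 28 h against 4 h, 6 of the 9 genes were lower (Lif, Il11, Csf1, Il1rl1, Ptgs1 and Ptgs2) and Il15 was higher, against 20.7% of all tested genes lower and 20.6% higher, 41.4% in all. The call of Lif (log2 -0.92 ± 0.29, adjusted p = 0.0217) was lost without 4 h replicate 1 or 28 h replicate 2 (log2 -0.54 and -0.75) and with equal totals (log2 -0.74). At 32 h against 8 h, Il11, Csf1, Il1rl1 and Ptgs2 were lower, Il6 was higher and 4 genes did not pass, against 14.1% lower and 13.5% higher, 27.6% in all. The 5 genes of that comparison were 3 without 32 h replicate 2 (Il11, Il1rl1 and Ptgs2), where 12.5% of all tested genes passed. They were 7 with a replicate block (42.3% of all tested genes), which added Il15 as higher (adjusted p = 0.00851) and Ptgs1 as lower (adjusted p = 6.52e-05). Il15 was also higher with equal totals (log2 0.62, adjusted p = 0.0480) and without 8 h replicate 2 (log2 0.87, adjusted p = 0.0230). Neither of these comparisons uses the 0 h libraries.

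A rhythm of 24 h, the subject named in the title of the series, was not found in the set. By limma's F test of a cosine and a sine, 0 of the 9 genes passed, against 0.371% of all tested genes. At an unadjusted p under 0.05 there was 1, Ptges, and 0 passed by edgeR or by DESeq2, where 0.315% and 4.30% of all tested genes did. These fits had no term for a trend and counted a drift over the course as spread, so they say little about rhythm in drifting genes. Il6 had a fitted peak-to-trough fold of 1.85 with a peak at 0.597 ± 1.47 h (SE, adjusted p = 0.294), and Ptges a fold of 1.17 with a peak at 3.19 ± 1.29 h (adjusted p = 0.258). When a straight trend was fitted along with the curve, 2 genes passed, Il11 and Ptges (adjusted p = 0.0352 and 0.0415), against 17.0% of all tested genes in that fit.

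Replicate 2 departed from replicate 1 in the same direction at all 9 times for 5 of the 10 genes. Over all tested genes too, same-numbered libraries deviated together in all 36 pairs of times (r from 0.230 to 0.502). The share of all tested genes with the same direction at all 9 times was not counted, so the 5 genes are not set apart from other genes. Lif, Il11, Ptgs1 and Ptgs2 were lower in replicate 2 each time, with median ratios of replicate 2 to replicate 1 of 0.699, 0.8005, 0.801 and 0.763. Il6 was higher each time, with a median ratio of 1.44. For Il15 the ratio was above 1 at 8 of 9 times, and for Csf1, Il1rl1 and Ptges it was below 1 at 7, 6 and 7 times. The shape of the course was alike in both series, with Pearson's r over the 9 times (log2 values, a description) of 0.999 for Ptgs2, 0.993 for Il11, 0.982 for Lif and 0.915 for Il6, and the lowest r was 0.544 for Ptges.

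**Figure D3:**
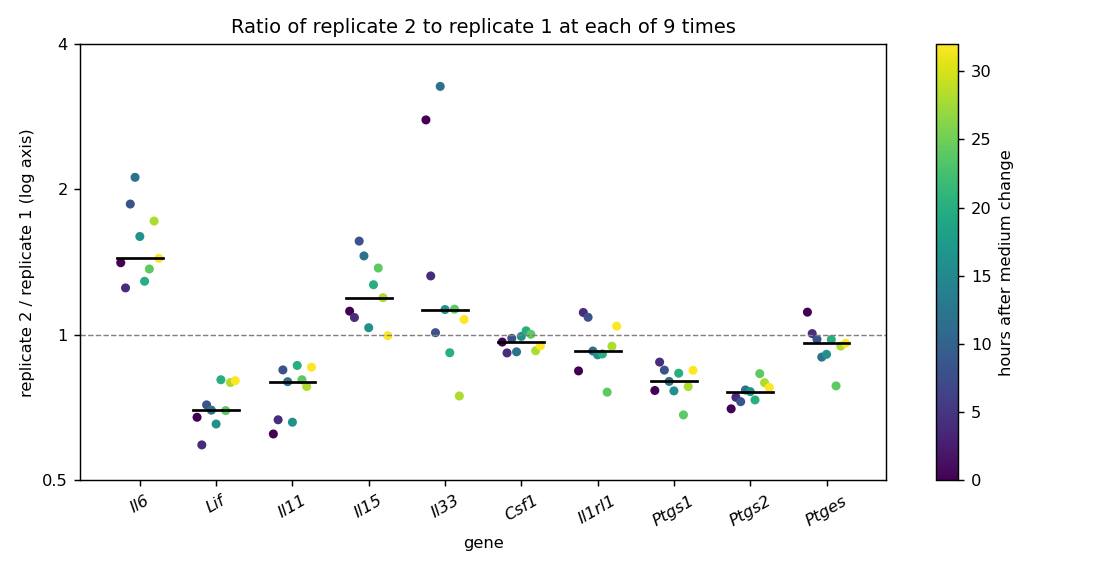
Ratio of replicate 2 to replicate 1 (log axis) for each of the 10 genes, with 1 point per time, coloured by hours after the medium change, and a bar at the median. All points of Lif, Il11, Ptgs1 and Ptgs2 lie below 1 and all points of Il6 lie above 1.

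The genes with the most similar courses were taken among all genes with a mean of at least 50, by Pearson's r of log2 values over the 18 libraries. Points of one replicate share their offset and all share the same drift in time, so these r describe likeness only. Ptgs2 was closest to Hbegf, an EGF receptor ligand (r = 0.994), then Mfsd2a and Csnk1e. Il11 was closest to Inhba, which encodes the activin A subunit (r = 0.990), then Hip1r and Cspg4. Lif was closest to Furin, a proprotein convertase (r = 0.980), then Dot1l and Hmgxb3. Il6 was closest to 3110039M20Rik (r = 0.957), then Stat3, the factor its receptor activates (r = 0.954), and Eef1a1. The next in likeness were Pdgfa, Mmp14 and Flnc for Csf1 (r from 0.982 to 0.985), Ext1, Cd44 and Trim16 for Il1rl1 (0.965 to 0.974), Ttc23, Helb and Vps33a for Il15 (0.967 to 0.970) and Slc16a13, 7530420F21Rik and Tll1 for Ptgs1 (0.951 to 0.972).

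Receptors and signalling genes of the gp130 cytokines changed in both directions. Their counts and those of the lists after them stand beside 10.5% of all tested genes lower and 11.0% higher at 4 h, 17.1% and 17.3% at 8 h, and 20.4% and 20.5% at 32 h, all against 0 h. With equal totals these shares were 8.52% lower and 13.6% higher at 4 h, 9.26% and 32.4% at 8 h, and 10.5% and 44.9% at 32 h. Of 14 tested genes 6 were lower and 2 higher at 4 h against 0 h, 5 lower and 1 higher at 8 h (2 and 4 with equal totals), and 3 lower and 6 higher at 32 h (2 and 9 with equal totals). Il6ra, the interleukin-6 receptor chain, had 566 ± 2.90 normalized reads at 4 h and 1392 ± 124 at 0 h, a 2.45-fold fall (adjusted p = 8.16e-06), and was 2.20-fold lower at 32 h. Pias3, an inhibitor of STAT3, was 1.44-fold higher at 32 h (adjusted p = 0.000168). Of 4 other tested ligands of the family 1 was lower at 4 h, 1 at 8 h and 2 at 32 h. Clcf1, a cytokine of this family, had 865 ± 71.2 normalized reads at 32 h, against 1796 ± 68.1 at 0 h (2.08-fold, adjusted p = 9.65e-05). Its fall at 4 h (1.48-fold, adjusted p = 0.0197) was lost without 0 h replicate 2 or 4 h replicate 2 (adjusted p up to 0.157).

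Of the other genes of prostaglandin production, transport and sensing, 5 of 10 in synthesis, 3 of 4 in transport and breakdown and 3 of 4 receptors passed the F test, against 52.0% of all tested genes. Of 10 other tested genes of prostanoid synthesis 1 was lower at 4 h (Cbr1, 1.37-fold), 1 was higher at 8 h and 2 were lower at 32 h, where equal totals gave 3 higher and none lower and quantile normalization gave none in either direction. Pla2g4a, the phospholipase that frees arachidonic acid, was 1.33-fold lower at 32 h (adjusted p = 0.00602, and 0.141 with equal totals). Of 4 genes of prostanoid transport and breakdown 1 was higher at 4 h, 2 at 8 h and 1 at 32 h, which became 2 when totals were equal. Slco2a1, the prostaglandin uptake transporter, had 1685 ± 230 normalized reads at 4 h and 1085 ± 156 at 0 h (1.55-fold, adjusted p = 0.0120). Of 4 tested prostanoid receptors 1 was higher at 4 h (2 with equal totals), 1 was higher at 8 h, and at 32 h 1 was higher and 1 lower (2 higher and none lower with equal totals). Ptgfr, the receptor of prostaglandin F2 alpha, reached 3466 ± 1034 normalized reads at 32 h, against 847 ± 247 at 0 h (4.09-fold, adjusted p = 8.70e-05). Ptgir, the prostacyclin receptor, was 1.98-fold higher at 4 h (52.6 ± 5.15 normalized reads, against 26.1 ± 3.93 at 0 h, adjusted p = 0.00602). The calls of Slco2a1 and Ptgir at 4 h were lost without 0 h replicate 2 or 4 h replicate 1, that of Cbr1 without 0 h replicate 2 and that of Pla2g4a without 0 h replicate 1 or 32 h replicate 2 (adjusted p up to 0.143, 0.0723, 0.0885 and 0.0781). Anxa1, a mediator of glucocorticoid action, was the gene that was lower among 3 tested genes of the leukotriene and annexin A1 list at 32 h (1.44-fold, adjusted p = 7.87e-05), where equal totals gave 1 lower and 1 higher. It was 1.18-fold lower at 8 h (adjusted p = 0.0257, and 0.296 with equal totals, which gave 1 other gene as higher).

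**Figure D4:**
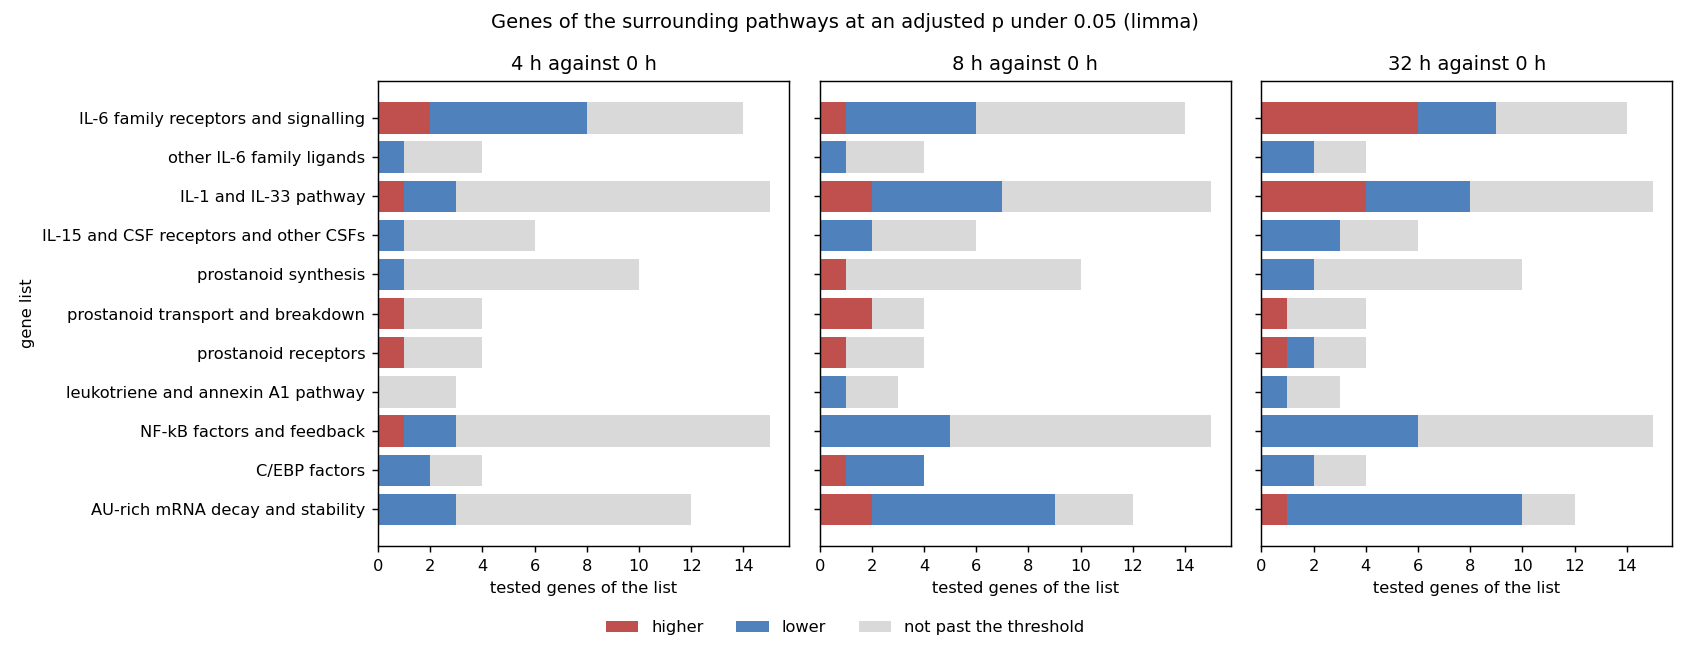
Number of tested genes (horizontal axis) of each pathway list, in the values as deposited, that were higher (red), lower (blue) or not past the threshold (grey) at 4 h, 8 h and 32 h against 0 h, by limma. The AU-rich mRNA decay list has 9 lower genes among 12 at 32 h, and the IL-6 family receptor and signalling list has 6 higher among 14. With equal totals these counts are 6 and 9.

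Receptors of the other cytokines and regulators of such genes were counted in the same way. Of 6 tested genes of interleukin-15 and CSF receptors and other CSFs 1 was lower at 4 h, 2 at 8 h (3 after quantile normalization) and 3 at 32 h (2 with equal totals), and none was higher as deposited, with equal totals or after quantile normalization. Csf3, which encodes G-CSF, had 49.2 ± 2.29 normalized reads at 32 h, against 499.6 ± 7.95 at 0 h, a 9.99-fold fall (adjusted p = 6.29e-08). Of 15 genes of the interleukin-1 and interleukin-33 pathway 2 were lower and 1 higher at 4 h (1 and 2 with equal totals), 5 and 2 at 8 h (4 and 3), and 4 and 4 at 32 h (2 and 7). Il1r1, the signalling receptor of interleukin-1, was 2.12-fold lower at 8 h (2676 ± 250 normalized reads, against 5661 ± 189 at 0 h, adjusted p = 2.81e-06). Of 15 NF-kB factors and feedback genes 2 were lower and 1 higher at 4 h (1 and 2 with equal totals), 5 and 0 at 8 h (3 and 2), and 6 and 0 at 32 h (2 and 6), and Tnfaip3, the inhibitor A20, was 2.45-fold lower at 32 h. Of 4 C/EBP factors 2 were lower at 4 h (2 lower and 1 higher with equal totals), 3 were lower and 1 higher at 8 h (2 and 1), and 2 were lower at 32 h (1 lower and 2 higher with equal totals). Cebpb, a known activator of Il6 and Ptgs2, had 893 ± 81.5 normalized reads at 8 h, against 2327 ± 398 at 0 h (2.59-fold, adjusted p = 7.72e-07). Of 12 genes of AU-rich mRNA decay and stability 3 were lower at 4 h, 7 were lower and 2 higher at 8 h (4 and 3 with equal totals), and 9 were lower and 1 higher at 32 h (6 and 3). Zfp36, whose product tristetraprolin is known to destabilise cytokine and Ptgs2 mRNA, was 2.29-fold lower at 4 h (714 ± 26.6 normalized reads, against 1652 ± 306 at 0 h, adjusted p = 2.88e-05), and its relative Zfp36l2 2.07-fold.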

How the data were processed

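Per the labels, RNA of NIH3T3 cells was column purified and sequenced as single-end Illumina libraries. The submitters' processing notes name TopHat, HTSeq, DESeq and the build mm9, while tool versions, annotation and strand setting are not given in the sources used here. The deposited values are a signal: reads counted in each gene, scaled by a size factor of the library. Whole reads were recovered from them (100% of values within 0.02 of a whole read). Libraries held 25.4 to 38.9 M reads, so counting error is small for all members but Il33, Il15 and Il6.

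Genes with a mean of at least 10 were tested on log2(value + 1), which understates changes of low genes, with limma 3.58.1 (R 4.3.3) over all 18 libraries and Benjamini-Hochberg adjustment over 12393 genes at 0.05. Contrasts against 0 h share its libraries. Same-numbered libraries deviated together in all 36 pairs of times (r from 0.230 to 0.502), so the numbers pair the libraries. The main model left this pairing out, so its SE included the offset between replicates, and a replicate block was an alternative. For Ptgs2 at 32 h against 0 h the SE was 0.231, and 0.0504 with the block. The other alternatives were edgeR 4.0.16 and DESeq2 1.42.0 on recovered reads, filters, pseudocounts, equal totals, quantile normalization and each library left out. The scripts were tested on simulated data. All 10 members were named. Of each pathway list the 3 genes with the smallest F test p were eligible, with values given for some of those past the threshold. A few eligible list genes are not reported here. For each member past the F test, the 3 genes of highest r were named. The members and lists were chosen with earlier results of these data known.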

Additional observations from a re-analysis of the deposited data

How the results depend on the processing

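Of 3330 member results under alternatives, 3152 were unchanged, 107 lost the call and 48 gained it. Another 23 turned direction, all without a call in the values as deposited. F test and rhythm results have no direction. A contrast keeps its log2 change when a library of another time is left out, and only its SE and adjusted p can move. Much of the tally was therefore fixed in advance, and it does not measure robustness. At 32 h against 0 h a replicate block added Ptgs1 and Ptges to the members called. At 4 h against 0 h the count of members called was 2, with 5 under a replicate block and 0 to 3 with a library left out. At 32 h against 8 h it was 5, with 3 to 6 with a library left out. At 8 h against 4 h it was 5, with 3 after quantile normalization, 8 under a replicate block and 1 to 5 with a library left out. For the 24 h rhythm it was 0, with 2 with a linear term in time. Equal totals turned the log2 change of Csf1 at 4 h to 0.0250, of Ptgs1 at 8 h to 0.0213, of Ptges at 8, 24 and 28 h to 0.0147, 0.0337 and 0.0744 and of Il6 at 32 h to 0.0877, all against 0 h. Quantile normalization turned Csf1 at 4 h against 0 h to 0.0486 and Lif at 32 h against 8 h to -0.0211, which was -0.00888 by edgeR and -0.00669 by DESeq2. With a library left out, log2 changes against 0 h ran from -0.17 to 0.51 for Il11 and from -0.0712 to 0.0522 for Csf1 at 4 h, from -0.31 to 0.0701 for Ptgs1 at 8 h, and from -0.35 to 0.00381 for Ptges at 24 h. They ran from -0.63 to 0.15 for Il6 at 28 h and from -0.38 to 0.14 at 32 h, and for Lif at 32 h against 8 h from -0.23 to 0.25. The cause was not tested. Equal totals raised the median change of all genes by 0.14 at 8 h and 0.21 at 32 h. With 2 libraries a time, calls at 4 h rest on few values, and at 2 to 14 reads a library Il33 is limited by counting error.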
